A study of Mus musculus with 3 samples.

Results

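The genes described here are the early growth response (EGR) transcription factors Egr1, Egr2, Egr3 and Egr4, their corepressors Nab1 and Nab2, and the immediate early response genes Ier2, Ier3 and Ier5. They were taken by gene symbol from a table of transcript levels, and all 9 were found among its 20308 rows. RNA sequencing had been done on satellite cells, the stem cells that repair muscle, sorted from hindlimbs of Pax7-ZsGreen mice aged 3 months. In these mice the green fluorescent protein ZsGreen reports activity of Pax7, the transcription factor that marks satellite cells, and muscle of several animals was pooled, digested with enzymes and sorted for ZsGreen, at about 200000 cells per sample. The 3 libraries form 1 group with no treatment, no mutant and no undigested or unsorted sample, so the data give levels and comparisons between genes, and no comparison between conditions. The tissue is the tibialis anterior in the sample labels and the hindlimb muscles in the series text.

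EGR proteins are zinc finger transcription factors whose genes are switched on within minutes of growth factor, stress or injury signals, without new protein synthesis. A main route runs from RAS through the ERK kinases to serum response factor (SRF) and its ETS cofactors, which bind CArG boxes in immediate-early promoters. NAB proteins bind EGR proteins and recruit the chromatin remodelling complex NuRD, which limits EGR activity, and Nab2 is itself a known EGR target, so the corepressors form a feedback loop. The IER genes share the fast induction but are not a family of EGR-like factors: they encode small proteins that act on growth, survival and stress signalling. In muscle, satellite cells leave quiescence when tissue is injured, and enzymatic digestion is known to induce immediate-early genes.

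Values are TPM, a measure that divides by transcript length and library total, so levels may be compared between genes. Read totals are not part of TPM, and library depth is therefore unknown. All 10 satellite cell markers lay above 1 TPM in limma's moderated test, as did 60.8% of all genes tested. Among these markers Pax7 gave 56.8, 46.4 and 51.1 TPM in replicates 1, 2 and 3. The median of genes of at least 10 TPM on average was 37.8, 38.6 and 36.3 TPM in the 3 libraries, close to each other. Whether each library had its own pool of animals is not in the labels, so the p-values reflect sample-to-sample spread that may be technical. In bulk RNA, fewer cells that carry a transcript and less transcript per cell cannot be told apart.

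Of the 9 genes, 8 lay above 1 TPM and Egr4 was listed at 0 (limma, adjusted p under the threshold of 0.05). Above 1 TPM stood 60.8% of the 12822 genes that had a value in at least 1 library, so this count says little about these genes. Egr1, Egr2, Ier2 and Ier5 lay above 100 TPM, a level passed by 9.54% of all genes tested. Egr3, Nab1 and Nab2 lay below 100 TPM, as did 85.1% of all genes tested, and Ier3 was not decided. The median of the 9 genes was 97.97 TPM, against 11.5 TPM over the 12822 genes tested and 2.24 TPM over the whole table. Together the 9 genes held 0.373%, 0.313% and 0.38% of all TPM in replicates 1, 2 and 3, and Egr1 made up 64.4%, 61.7% and 69.5% of their sum.

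**Figure D1:**
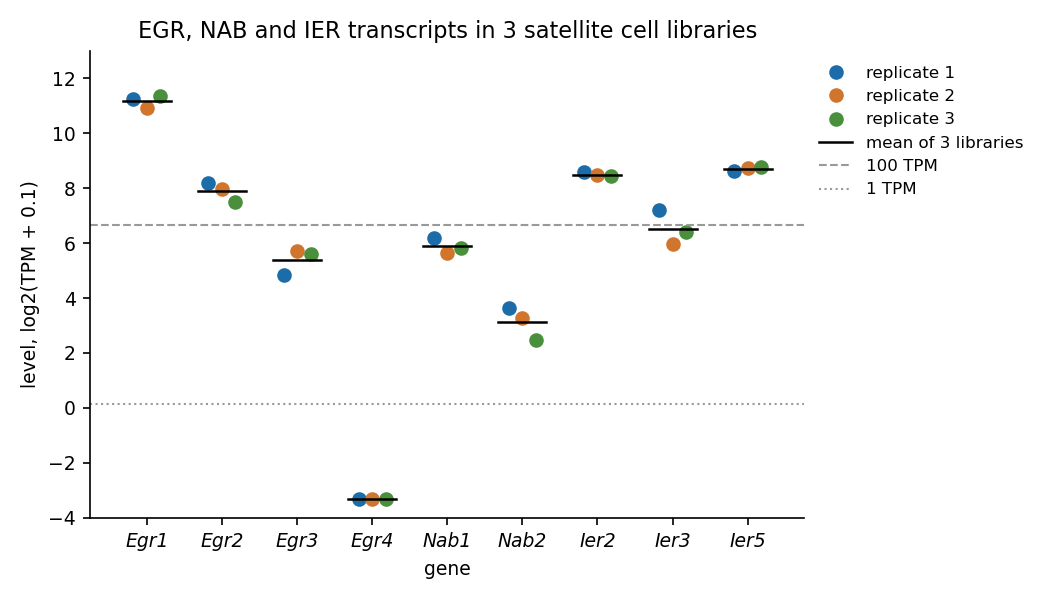
Level of each of the 9 genes in the 3 libraries on the log2(TPM + 0.1) scale (points, coloured by replicate; black bars are means over the 3 libraries; dashed and dotted lines mark 100 and 1 TPM). Egr1 stands highest, Egr1, Egr2, Ier2 and Ier5 lie above the 100 TPM line in every library, and Egr4 sits at the floor because it is listed at 0.

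The EGR factors were expressed in a steep order, Egr1 over Egr2 over Egr3, with Egr4 listed at 0. Egr1, the prototype of the family and a growth factor response gene (chromosome 18, 34859823 to 34864984, plus strand, GRCm38), gave 2401, 1932 and 2646 TPM in replicates 1, 2 and 3. These values place it at rank 57, 81 and 46 of the table, so it belonged to the most abundant transcripts in each library. On average 59 genes, or 0.29% of the table, stood above it. Egr1 exceeded 100 TPM by 4.53 ± 0.101 (SE, n = 3) on the log2(TPM + 0.1) scale (limma adjusted p = 1.13e-09, 3 of 3 libraries).

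Egr2, known for its role in hindbrain patterning and in the myelination programme of Schwann cells, lies on chromosome 10 (67535475 to 67542188, plus strand). It gave 293, 250.1 and 179 TPM in replicates 1, 2 and 3, a mean of 241 ± 57.4 TPM (SD, n = 3). The highest library was replicate 1 and the lowest was replicate 3, 1.63-fold apart. Egr2 exceeded 100 TPM by 1.24 ± 0.137 (SE, n = 3) on the log2 scale (limma adjusted p = 0.000144, 3 of 3 libraries). Since Egr2 is a Schwann cell factor, markers of that cell type were set beside it. Of 12 Schwann cell markers, 5 lay above 1 TPM (60.8% of all genes tested), 5 were not decided, and Mag and Gjb1 were listed at 0 in all libraries. The 12 markers summed to 163, 189 and 264 TPM in replicates 1, 2 and 3, the reverse order of Egr2. Among the more abundant were the myelin genes Pmp22 at 86.4 ± 30.98 TPM and Mbp at 45.03 ± 11.7 TPM (SD, n = 3). Sox10, the factor that defines the lineage, gave 2.64, 1.23 and 0 TPM, the same order as Egr2. The part of Schwann cells in the Egr2 level was not tested.

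Egr3, which is required for muscle spindles, the stretch sensors of muscle, lies on chromosome 14 (70077203 to 70082614, plus strand). It gave 28.2, 51.85 and 48.6 TPM, lowest in replicate 1, with a mean of 42.9 ± 12.8 TPM (SD, n = 3). It lay below 100 TPM, with a log2 difference of -1.27 ± 0.224 (SE, n = 3, limma adjusted p = 0.000675, lower in 3 of 3 libraries). Of 7 genes linked to the muscle spindle, the ETS factor Etv1, Calb1 and Myh7b were listed at 0 in all libraries. Another ETS factor of the spindle, Etv4, gave 0, 0 and 0.18 TPM and was called below 1 TPM (limma adjusted p = 0.0414), as were 2.18% of all genes tested, and leaving out any 1 replicate ended this call. The 3 above 1 TPM were the neurotrophic factors Gdnf at 76.1 ± 22.5 TPM and Ntf3 at 24.9 ± 10.5 TPM, and the ETS factor Etv5 at 18.1 ± 6.72 TPM (SD, n = 3).

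Egr4 (chromosome 6, 85511121 to 85513589, minus strand) was listed at 0 TPM in all 3 libraries. A value of 0 in this table can be a failed estimate, because Rps27, a ribosomal protein gene that every cell uses, is also at 0. Egr4 was left out of the main level test, which kept only genes above 0 in at least 1 library. In the GENCODE annotation 0.378% of the 31-base words of the Egr4 transcript occur in another gene, Egr3, and the corresponding shares were 0.477% for Egr2 and 0.588% for Egr3. No word of Egr1, Ier2 or Ier3 was shared, so little of these transcripts was open to confusion with a relative.

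Within each library Egr1 exceeded Egr2 8.19-fold, 7.73-fold and 14.7-fold in replicates 1, 2 and 3. The mean difference was 3.29 ± 0.516 (SD, n = 3) on the log2(TPM + 0.1) scale, with the same direction in 3 of 3 libraries. Egr2 exceeded Egr3 10.4-fold, 4.82-fold and 3.69-fold, a mean log2 difference of 2.51 ± 0.775 (SD, n = 3). Neither pair overlapped between libraries, and the order of the family was the same in every library. Egr1 made up 88.2%, 86.5% and 92.1% of the summed EGR transcripts, Egr2 10.8%, 11.2% and 6.24%, and Egr3 1.04%, 2.32% and 1.69%. For each of the 13 pairs of genes compared, and for the summed EGR against the summed NAB level, the exact two-sided sign-flip permutation p was 0.25, unadjusted, which is the smallest p that 3 libraries allow.

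**Figure D2:**
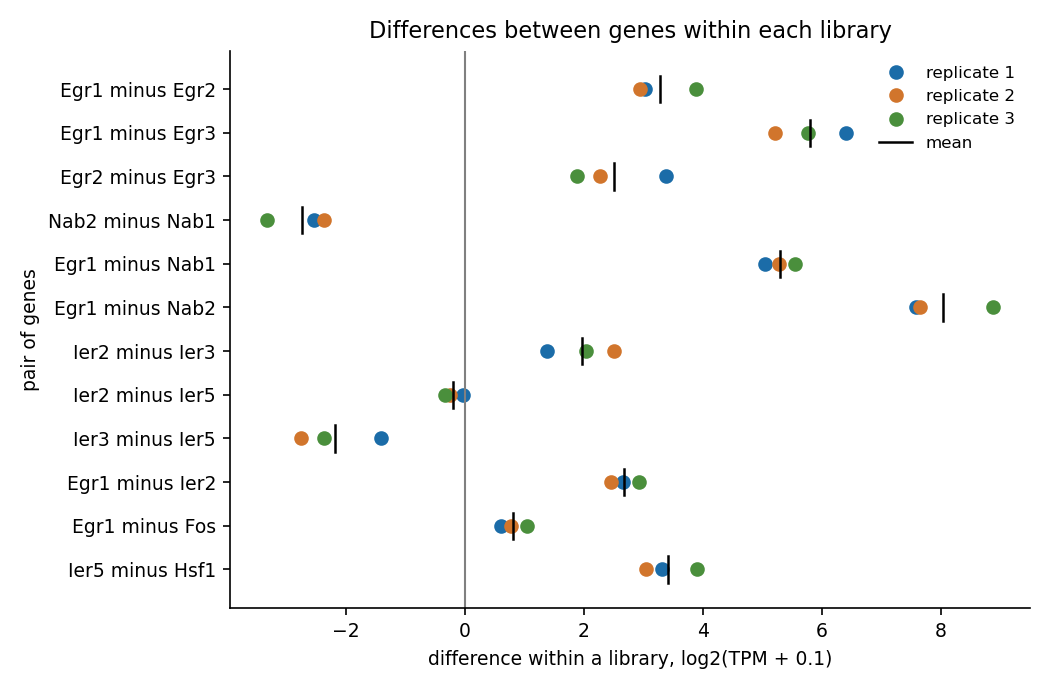
Difference between the genes of a pair within each library, on the log2(TPM + 0.1) scale (points are libraries, coloured by replicate; black bars are means; the grey line is no difference). In each of the 12 pairs drawn the 3 libraries lie on the same side of 0, and Ier2 minus Ier5 lies closest to it.

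The corepressor transcripts were far less abundant than the EGR transcripts, and Nab1 was the main one. Nab1 (chromosome 1, 52457294 to 52500679, minus strand) gave 72.3, 49.7 and 56.2 TPM, a mean of 59.4 ± 11.6 TPM (SD, n = 3). Nab2 (chromosome 10, 127660918 to 127668568, minus strand) gave 12.4, 9.5 and 5.48 TPM, a mean of 9.13 ± 3.48 TPM (SD, n = 3). Both were highest in replicate 1, and their values did not overlap. Nab2 minus Nab1 was -2.75 ± 0.514 (SD, n = 3) on the log2 scale, negative in 3 of 3 libraries. Nab1 supplied 85.3%, 84.0% and 91.1% of the NAB transcripts. Both lay below 100 TPM in limma's test (adjusted p = 0.00203 for Nab1 and 0.000358 for Nab2), and the call of Nab1 was lost when the 100 most abundant genes were left out of the scaling total (limma adjusted p = 0.331).

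The Nab2 value has a limit that the other genes lack. Its exons share 1050 bases (35.7%) with the opposite-strand gene Gm16229, which has no row in the table, 151 bases with Nemp1 and 40 bases with Stat6. Whether reads were counted by strand is not given in the sources used here, so reads of Nab2 and these genes may not have been separated. Stat6, a transcription factor of cytokine signalling, gave 10.6, 7.96 and 0 TPM, and Nemp1, listed under its older symbol Tmem194, gave 3.97, 3.93 and 0 TPM. All 3 genes were lowest in replicate 3, and the part of the overlap in the Nab2 level was not tested. Of the 31-base words of the longest Nab2 transcript, 32.7% occur in another gene, 31.8% in Gm16229. The corresponding share was 6.98% for Nab1.

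The summed EGR transcripts came to 2723, 2234 and 2874 TPM, and the summed NAB transcripts to 84.7, 59.2 and 61.7 TPM. The ratio was 32.1, 37.7 and 46.6 in replicates 1, 2 and 3, or 5.26 ± 0.269 (SD, n = 3) as a log2 ratio (p = 0.25 by the exact sign-flip permutation test, higher in 3 of 3 libraries). Egr1 alone exceeded Nab1 33.2-fold, 38.8-fold and 47.1-fold. Against Nab2 it was 193-fold, 203-fold and 483-fold higher, with replicate 3 apart from the others. These are ratios of transcripts, and protein was not measured.

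The partners through which NAB proteins act were present. All 13 NuRD subunits listed lay above 1 TPM (60.8% of all genes tested), 5 lay above 100 TPM (9.54% of all genes tested), and their median was 106 TPM. The count above 100 TPM was 3 with no variance trend, where Mbd2 and Gatad2a were not decided, and 8 with the 100 most abundant genes left out of the total. The most abundant were the histone-binding subunit Rbbp7 at 445 ± 74.7 TPM, the helicase Chd4, which binds Nab2, at 292 ± 23.2 TPM, and the deacetylase Hdac2 at 169 ± 15.1 TPM (SD, n = 3). Each of these exceeded Nab1 on average. Of the zinc finger factors that bind sites similar to those of EGR, Sp3 averaged 79.4 ± 3.9 TPM and Sp1 44.4 ± 9.15 TPM (SD, n = 3). Wt1, the Wilms tumour factor, gave 0, 0 and 0.14 TPM and was called below 1 TPM (limma adjusted p = 0.0349, background 2.18%), and leaving out any 1 replicate ended this call.

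Promoter sequence from the RefSeq table (GRCm38.p6) was set beside these levels for part of the genes. Its windows run from 250 bases before to 50 bases after an annotated start. Windows were searched for 6 of the 9 genes: Egr2, Egr4, Nab1, Nab2, Ier3 and Ier5. Promoters of the remaining members were not searched, whether or not an entry exists for them. Each window was searched on both strands for the EGR site GCGNGGGCG, the CArG box of SRF, the cyclic AMP response element TGACGTCA, the AP-1 site TGANTCA and the heat shock element GAANNTTC. Among the 32851 windows searched, the EGR site was held by 5.55%, the CArG box by 1.63% and the cyclic AMP response element by 1.79%. The AP-1 site was held by 7.81% and the heat shock element by 7.86%. A match to 1 of these motifs does not force a match to another. A match describes letters and not binding, and a window without a match says only that these letters are absent there.

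The 250 bases before the start of Egr2 and of its relative Egr4 are shown because Egr2 was abundant and Egr4 was listed at 0. They read 5′ to 3′ on the strand of the gene, with the CArG box in capitals (Egr2: chr10:67537619-67537868, plus strand; Egr4: chr6:85513590-85513839, minus strand).
Egr2: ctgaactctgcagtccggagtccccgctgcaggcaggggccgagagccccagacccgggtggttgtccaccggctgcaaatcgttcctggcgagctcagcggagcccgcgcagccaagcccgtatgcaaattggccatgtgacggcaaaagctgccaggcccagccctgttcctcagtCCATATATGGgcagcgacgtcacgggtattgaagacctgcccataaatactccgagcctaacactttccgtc
Egr4: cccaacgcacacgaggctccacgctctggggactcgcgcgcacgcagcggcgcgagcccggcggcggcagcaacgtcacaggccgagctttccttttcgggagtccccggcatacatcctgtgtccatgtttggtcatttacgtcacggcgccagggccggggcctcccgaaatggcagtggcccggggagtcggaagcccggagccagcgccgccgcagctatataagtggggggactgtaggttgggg
RefSeq gives 5 windows for Egr2, and the one shown is that whose start site is the start of the principal GENCODE transcript. It held 1 CArG box, at positions -72 to -63 from the start. Of the 5 windows 4 held a CArG box and the most upstream held 0, and none of the 5 held a match to the other motifs. The windows that begin at 67537619, 67537620 and 67537680 overlap and hold the same box, so their matches are not separate sites. The Egr4 window held 0 matches to the 5 motifs. Their GC content over the 300-base window was 60% and 67.7%, against a median of 52.7% for all windows.

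The searched windows of the 2 corepressor genes differed in the letters they share with the EGR binding site. The Nab1 window held 3 matches to the EGR site, a number reached by 0.195% of all windows (64 of 32851), whereas the Nab2 window held 0. The Nab1 window was also rich in G and C (81.7%, with 46 CpG), and the Nab2 window had 74% and 22 CpG, against medians of 52.7% and 7. The RefSeq start of Nab1 lies 231 bases downstream of the start of its principal GENCODE transcript, so the matches can also be read as lying after that start. The RefSeq start of Nab2 (127666703) lies 7 bases downstream of its principal GENCODE start. The annotated Nab2 gene reaches further upstream, to 127668568, and sequence at that end was not searched. The 3 Nab1 sites are shown with 10 bases on each side, 5′ to 3′ on the gene's strand, with the match in capitals. The first match is on the opposite strand and therefore reads as the reverse complement (chr1:52500571-52500599, chr1:52500539-52500567 and chr1:52500468-52500496, minus strand). The 250 bases before the Nab2 start follow for comparison (chr10:127666704-127666953, minus strand).
Nab1, -151 to -123: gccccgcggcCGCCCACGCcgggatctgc
Nab1, -119 to -91: actcggccgcGCGTGGGCGggagccggag
Nab1, -48 to -20: gcggggcgggGCGGGGGCGgcggaggtgg
Nab2: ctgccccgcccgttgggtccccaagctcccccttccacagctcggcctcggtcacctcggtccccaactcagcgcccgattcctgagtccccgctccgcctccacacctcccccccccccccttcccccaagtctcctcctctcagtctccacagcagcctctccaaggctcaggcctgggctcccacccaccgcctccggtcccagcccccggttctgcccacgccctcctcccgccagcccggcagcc
The windows of Ier3 and Ier5 held 0 matches to the 5 motifs.

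The IER genes fell into an even pair, Ier2 and Ier5, and a lower and less even gene, Ier3. Ier5, which guides the phosphatase PP2A to heat shock factor Hsf1 (chromosome 1, 155096361 to 155099636, minus strand, 1 exon), gave 393, 420.0 and 438 TPM. Ier2, a nuclear protein of the same family (chromosome 8, 84661331 to 84662852, minus strand, 1 exon), gave 382, 354 and 346 TPM. Each varied little between libraries, with a coefficient of variation of 5.42% for Ier5 and 5.25% for Ier2. Both exceeded 100 TPM, Ier5 by 2.06 ± 0.0882 and Ier2 by 1.85 ± 0.0898 (SE, n = 3) on the log2 scale (limma adjusted p = 1.11e-07 and 2.87e-07, 3 of 3 libraries each).

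Ier5 was higher than Ier2 in 3 of 3 libraries, but by little. Ier2 minus Ier5 was -0.04, -0.25 and -0.34 on the log2 scale, a mean of -0.21 ± 0.153 (SD, n = 3). Ier3, a regulator of cell survival that responds to NF-kappaB and stress (chromosome 17, 35821684 to 35822923, plus strand, 2 exons), gave 147, 62.2 and 84.8 TPM, a mean of 97.97 ± 43.9 TPM (SD, n = 3). Replicate 1 was high and replicate 2 low, 2.36-fold apart, the widest range among the 8 genes with a value. Its level against 100 TPM was not decided (difference -0.12 ± 0.214, SE, n = 3, limma adjusted p = 0.589). Without replicate 1 it was called below 100 TPM (limma adjusted p = 0.0266), and without replicate 2 the difference was 0.16. Ier2 exceeded Ier3 2.60-fold, 5.69-fold and 4.08-fold in replicates 1, 2 and 3.

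Relatives and partners of the IER proteins were mostly present. Of 9 listed, 8 lay above 1 TPM (60.8% of all genes tested) and 4 above 100 TPM (9.54% of all genes tested), with a median of 136 TPM. With no variance trend 2 lay above 100 TPM, and Ppp2ca (limma adjusted p = 0.109) and Ppp2r1a (0.122) were not decided. The 3 most abundant were subunits of PP2A: Ppp2cb at 180 ± 19.4 TPM, Ppp2r2a at 167 ± 10.7 TPM and Ppp2ca at 138 ± 13.5 TPM (SD, n = 3). Hsf1 gave 39.5, 50.8 and 29.1 TPM, and Ier5 exceeded it 9.95-fold, 8.27-fold and 15.1-fold. The closest relative of Ier5, Ier5l, gave 4.21, 6.99 and 0.82 TPM and was not decided against 1 TPM; this gene was picked once the values were known.

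Taken by level, the order was Egr1, Ier5, Ier2, Egr2, Ier3, Nab1, Egr3, Nab2 and Egr4. Neighbours in this order did not overlap between libraries, except Ier3 with Nab1 and Nab1 with Egr3. Ier3 exceeded Nab1 in 3 of 3 libraries within the library, by 0.65 ± 0.353 (SD, n = 3) on the log2 scale. Nab1 exceeded Egr3 in 2 of 3 libraries, by 0.50 ± 0.752 (SD, n = 3), and the order of this pair was not settled. Egr1 stood 2.47 ± 0.231 (SD, n = 3) above Ier5, the next gene, on the log2 scale.

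**Figure D3:**
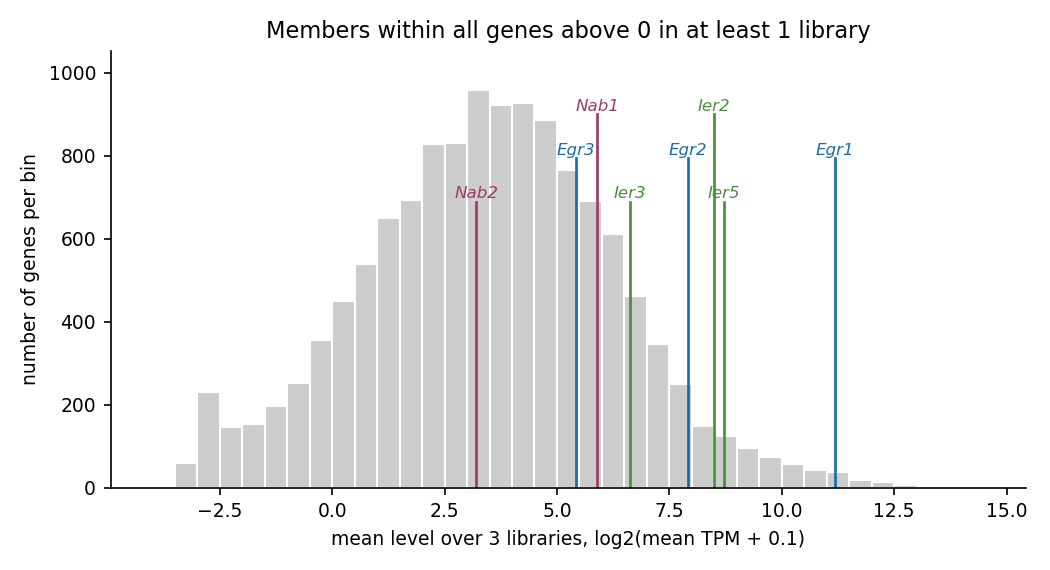
Number of genes per bin of mean level, on the log2(mean TPM + 0.1) scale, for the 12822 genes above 0 in at least 1 library (grey bars), with the 8 genes that have a value marked as lines (blue EGR, purple NAB, green IER). Egr1 lies in the thin upper tail, Ier5, Ier2 and Egr2 in its lower part, and Nab2 near the middle of all genes.

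The genes did not move together between libraries. Of the 8 genes with a value, 5 were highest in replicate 1 (Egr2, Nab1, Nab2, Ier2 and Ier3), 2 in replicate 3 (Egr1 and Ier5) and 1 in replicate 2 (Egr3). Among 6764 genes averaging 10 TPM or more, 35.3% were highest in replicate 1. Egr1 and Egr2 took opposite orders in replicates 1 and 3: Egr1 was higher in replicate 3 and Egr2 in replicate 1. Egr1 deviated from its own mean by 0.06, -0.26 and 0.20 on the log2 scale, and Egr2 by 0.31, 0.08 and -0.40. Egr3 deviated by -0.55, 0.32 and 0.23, and Ier3 by 0.68, -0.56 and -0.12, so replicate 1 was lowest for the first and highest for the second.

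None of the 8 genes was called variable by an F test of residual variance against limma's trended prior variance (Benjamini-Hochberg), which called 0.0177% of 11318 genes of at least 1 TPM, and 629 of the 11318 had an unadjusted p under 0.05. Ier3 came nearest, with a variance 5.14 times that of genes of its level (unadjusted p = 0.0357, adjusted p = 0.855), followed by Egr1 at 3.79 times (unadjusted p = 0.068, adjusted p = 0.918). Ier2 and Ier5 had 0.177 and 0.212 times the variance of genes of their level. With 3 libraries a larger spread may go undetected.

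**Figure D4:**
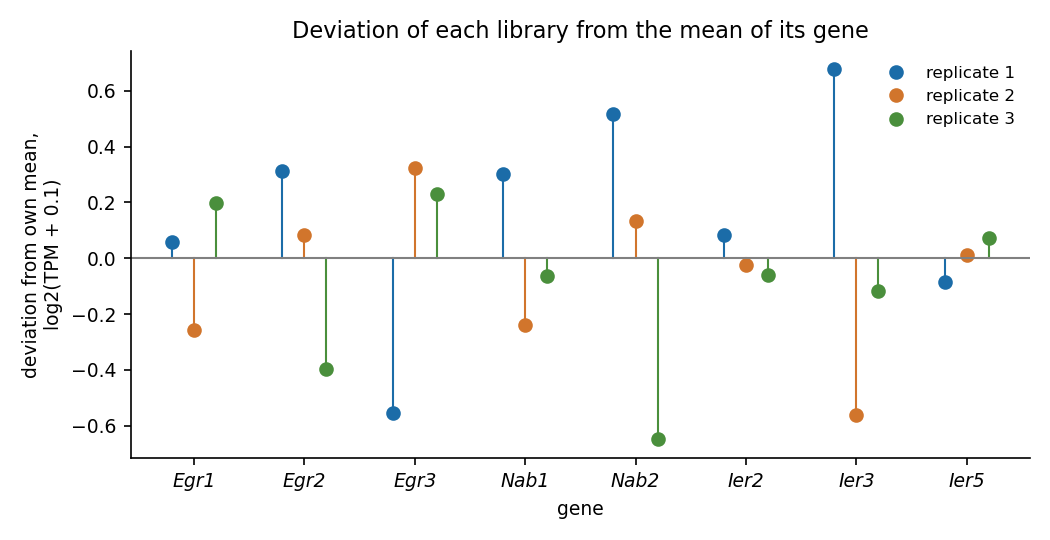
Deviation of each library from the mean of its gene, on the log2(TPM + 0.1) scale, for the 8 genes with a value (points with stems, coloured by replicate). Ier3, Nab2 and Egr3 show the widest spread, Ier2 and Ier5 the narrowest, and the libraries do not keep 1 order across genes.

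Genes whose 3 values follow those of a member most closely were sought among 6757 other genes of at least 10 TPM, by the root mean square difference of their log2 deviations. For Egr1 these were Erap1, at 24.1, 19.4 and 26.6 TPM (difference 0.0012), and Prkd3, at 21.2, 17.1 and 23.3 TPM (0.00516). For Egr3 they were Luc7l (0.00419) and Apmap (0.0146), for Nab2 they were Nsf (0.0124) and Rrad (0.0232), and for Ier3 they were Slc22a5 (0.0113) and Sipa1l2 (0.0134). Over 3 libraries such likeness is common. Within 0.1 lay 319 genes for Egr1, 99 for Egr3, 79 for Nab2 and 39 for Ier3.

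Upstream of the immediate-early genes, the RAS to ERK chain was present throughout. All 10 of its listed genes lay above 1 TPM (60.8% of all genes tested) and 2 above 100 TPM (9.54%), with a median of 75.9 TPM. The count above 100 TPM was 1 with a pseudocount of 1 or no variance trend, and 4 with the 100 most abundant genes left out of the total. The kinase Map2k1 (MEK1) averaged 230.3 ± 19.5 TPM and Nras 125 ± 20.5 TPM (SD, n = 3). The call of Nras above 100 TPM (limma adjusted p = 0.0463) was lost without replicate 2 (0.141) or replicate 3 (0.233). Of SRF and its 5 cofactors, 5 of 6 genes lay above 1 TPM (60.8% of all genes tested), 3 of them without replicate 2. None was called above 100 TPM, but 1 was with the 100 most abundant genes left out of the total. Elk4 averaged 109 ± 3.31 TPM, Srf 32.2 ± 4.4 TPM and Elk1 18.6 ± 5.45 TPM (SD, n = 3). The ETS cofactor Elk3 was not past 1 TPM without replicate 1 (limma adjusted p = 0.214) or replicate 2 (0.267), nor the cofactor Mkl1 without replicate 2 (0.0585). Srf and every listed cofactor therefore averaged far below Egr1.

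Feedback brakes on ERK were also present. Of 11 listed phosphatases and Sprouty-type inhibitors, 9 lay above 1 TPM (60.8% of all genes tested) and 4 above 100 TPM (9.54%), with a median of 62.2 TPM. Dusp1, a MAP kinase phosphatase, gave 450.2, 460.4 and 457 TPM. Spry2 averaged 318 ± 75.6 TPM and Spred1 173 ± 16.5 TPM (SD, n = 3). Dusp1 was thus close in level to Ier5, and its coefficient of variation was 1.14%.

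Among 24 other immediate-early genes, all lay above 1 TPM (60.8% of all genes tested), 18 above 100 TPM (9.54%) and 6 below it (85.1%), with a median of 541 TPM. None of the 24 had a higher mean than Egr1. The highest were Fosb, at 1711, 1561 and 1693 TPM, the RNA decay factor Zfp36, at 1494, 1296 and 1744 TPM, and Fos, at 1583, 1132 and 1290.5 TPM. Egr1 exceeded Fos by 0.60, 0.77 and 1.04 on the log2 scale in replicates 1, 2 and 3, a mean of 0.80 ± 0.219 (SD, n = 3), and the 2 genes did not overlap between libraries. Of the 24 genes, 14 averaged more than Ier5 and 21 more than Egr3.

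Genes known as EGR targets were present at mixed levels. Of 11 listed, 10 lay above 1 TPM (60.8% of all genes tested) and 3 above 100 TPM (9.54%), with a median of 44.8 TPM, and the growth factor gene Pdgfb was listed at 0 in all libraries. The adhesion receptor Cd44 averaged 763 ± 81.8 TPM, the angiogenic factor Vegfa 567 ± 45.6 TPM and the matrix protein Thbs1 145 ± 39.3 TPM (SD, n = 3). Thbs1 was not past 100 TPM without replicate 1 (limma adjusted p = 0.0786). Its call was also lost with no filter on low values (limma adjusted p = 0.0665) or with no variance trend (0.164). Each of these genes answers to many other factors, and no EGR protein or binding was measured.

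**Figure D5:**
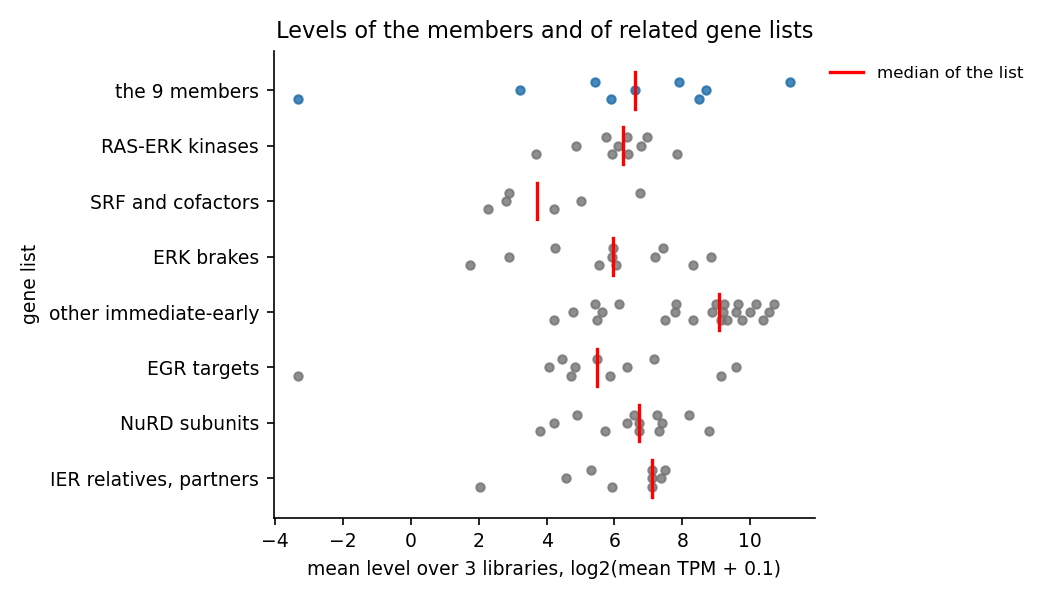
Mean level of each gene over the 3 libraries, on the log2(mean TPM + 0.1) scale, for the 9 genes (blue) and 7 related lists (grey); red bars are list medians. The other immediate-early genes have the highest median, and no point of any list lies to the right of Egr1.

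Immediate-early genes are not particular to satellite cells, so markers of other cells of muscle were set beside them. The counts above 1 TPM that follow stand beside 60.8% of all genes tested. Of 8 endothelial markers all lay above 1 TPM, and they summed to 186, 225 and 284 TPM in replicates 1, 2 and 3, led by Cldn5, Pecam1 and Tek at 46.2, 40.5 and 37.7 TPM on average. Of 8 fibro-adipogenic markers 6 lay above 1 TPM, and they summed to 2456, 2386 and 2164 TPM, led by Gsn, Col3a1 and Dpt at 888, 585 and 572 TPM. The receptor Pdgfra, which defines those cells, gave 4.98, 0.11 and 0.06 TPM. Of 8 leukocyte markers with a row 4 lay above 1 TPM, summing to 129, 178 and 109 TPM, led by Lyz2, S100a9 and Cd79a at 70.1, 27.4 and 17.3 TPM, with Cd3e listed at 0. The leukocyte gene Ptprc was not past 1 TPM without replicate 2 (limma adjusted p = 0.057). Of 10 fibre markers, which summed to 96.9, 70.9 and 131 TPM, 3 lay above 1 TPM: Acta1, Tnnt3 and Myh1, at 28.6, 18.0 and 6.85 TPM on average. Mylpf gave 26.4, 7.45 and 0 TPM and was not decided, and Myh2 was listed at 0. Myh1 was not past 1 TPM without replicate 2 (limma adjusted p = 0.253) or replicate 3 (0.208). The fibro-adipogenic sum was highest in replicate 1 and lowest in replicate 3, like Egr2, Nab2 and Ier2. The endothelial and Schwann sums were lowest in replicate 1 and highest in replicate 3, like Ier5. The part of other cells in the levels of the EGR, NAB and IER genes was not tested. The 10 satellite cell markers summed to 7965, 8077 and 7668 TPM, most of it from the syndecan gene Sdc4 at 4135 TPM, Myod1 at 1240 TPM and Des at 1164 TPM on average, whereas Pax7 averaged 51.4 TPM.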

How the data were processed

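The authors deposited 1 table of TPM for 20308 gene symbols, 1 column per library, which per the table's name leaves out mitochondrial genes and is renormalised; the columns sum to between 999999.85 and 1000000.3. Per the submitters' processing notes, the build was mm10, with RSEM 1.2.3, Bowtie 0.12.9 and CASAVA 1.8 as tools; for settings, annotation and strand the entry is "not given in the sources used here". Libraries were assigned from their titles (replicates 1 to 3, n = 3). TPM keeps no depth, so no counting interval is given.

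Levels were tested as log2(TPM + 0.1), where folds of low genes come out too small, against 1 and 100 TPM, two-sided, over 12822 genes above 0 in at least 1 library, with limma 3.58.1 in R 4.3.3 (moderated test with a variance trend, Benjamini-Hochberg over all genes, threshold 0.05). Pairs were compared within libraries by exact sign-flip permutation. Positions and 31-base words come from GENCODE M21 (GRCm38), promoters from RefSeq. The scripts were tested on simulated data. Alternatives were the pseudocount, filters, variance trend, scaling and leaving out each replicate.

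The members, lists, pairs and rules were chosen with earlier results of these data known. Named are all 9 members, both genes of each pair, the 3 highest of each list and those at 0, and the most alike genes; others named serve as markers or limits or were picked with their values known. Of the listed genes, 1 leukocyte marker had no row, and some that the rule names are left out here.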

Additional observations from a re-analysis of the deposited data

How the results depend on the processing

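The counts of genes above 1 TPM and above 100 TPM, and of the 9 genes above either level, stayed within 1.5 times under every alternative run, and the direction of all 13 pairs and of the summed EGR against NAB level did not change. The count of all genes below 1 TPM was 279, and it was 3 with a pseudocount of 0.01, 451 with a pseudocount of 1, 0 for genes of at least 0.1 TPM on average, 8056 with no filter, 478 with no variance trend, 26 with the 100 most abundant genes left out of the total, and 0 in each leave-one-out fit. With no filter, 1 of the 9 genes, Egr4, was called below 1 TPM, and the count of all genes below 100 TPM was 16526 instead of 10906, because genes listed at 0 then enter. The undecided difference of Ier3 from 100 TPM turned from -0.12 to 0.47 with the 100 most abundant genes left out of the total and to 0.16 without replicate 2; it was -0.46 without replicate 1 (limma adjusted p = 0.0266) and the leave-one-out values lay between -0.46 and 0.16. The number of variable genes was 2, against 16 with a robust prior, 0 for genes of at least 10 TPM, and 29 to 57 when 1 replicate was left out; none of the 9 genes was among them in any of these. The cause of these changes was otherwise not tested. Leave-one-out fits lean on the variance pooled over genes (prior degrees of freedom 6.8 with 3 libraries, 43.6 without replicate 1, 124 without replicate 3 and unlimited without replicate 2), so they assume that a gene varies like others of its level. No paired analysis was possible because the libraries form 1 group, so replicate numbers link no samples of different groups; the 13 gene pairs are differences within each library. Depth is unknown, so detection limits cannot be given.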
